A study of Neurospora crassa with 22 samples.

Results

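The binding of the transcription factors CLR-2 and XLR-1 was compared in Neurospora crassa mycelium held for 4 h on Avicel, a crystalline cellulose. The data were 6 of the 17 deposited lists of ChIP-seq peaks in a series of 22 samples, 3 lists for CLR-2 and 3 for XLR-1, with 9041 and 10049 peaks on the 7 chromosomes. Peaks of a factor that overlapped by at least 1 bp were joined, and a joined stretch was kept as a region when it held peaks of at least 2 of the 3 lists. This gave 1487 CLR-2 regions and 2124 XLR-1 regions.

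N. crassa is a filamentous fungus that secretes enzymes to break down plant cell walls. CLR-2 is a zinc binuclear cluster factor known for its role in switching on cellulase genes when cellulose is the carbon source. XLR-1, the counterpart of XlnR in Aspergillus, is known for its role in the expression of xylanases and of the enzymes that carry xylose and arabinose into central metabolism. Plant cell walls hold both polymers, and some enzymes of the fungus are known to depend on both factors. In a ChIP-seq list, each peak is a stretch of the genome that the peak caller marked as bound, from the sequenced fragments (tags) of chromatin pulled down with the factor.

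CLR-2 was pulled down with an mCherry antibody from a strain of mating type A carrying his-3::p_ccg1::mCherry-clr2 together with deltaclr2::HygR. XLR-1 was pulled down with a GFP antibody from a strain carrying his-3::p_ccg1::xlr1-GFP together with deltaxlr1::HygR. Both derive from OR74A (FGSC2489), both lacked the native gene, and in both the tagged copy sat at his-3 behind the ccg-1 promoter, not its own. Mycelium of both was grown for 16 h on sucrose, washed and moved to Avicel. Labels write the time as a bare number, read here as hours. Tag, antibody and strain differed together with the factor, so their effects cannot be told apart from those of the factor. Nothing in the labels says that the lists of a group came from separate cultures, and the spread between lists may be technical. The genome build was NC12. Lists of CLR-1 on Avicel and sucrose and of XLR-1 on xylan are used below for comparison. Their labels name ccg1 and GFP, as those of XLR-1 on Avicel do, and the label of CLR-2 at 24 h names ccg1 and mCherry. Input and mock libraries were not analysed here.

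The 6 lists differed in length and in the strength of their peaks. CLR-2 lists 1, 2 and 3 held 2854, 1832 and 4355 peaks, and XLR-1 lists 1, 2 and 3 held 2284, 897 and 6868. Median tags per peak were 105, 1455.5 and 290 in the CLR-2 lists, against 17, 14 and 56 in the XLR-1 lists. The median fold enrichment over local background, the authors' ratio, was 0.50, 2.25 and 1.15 in the CLR-2 lists, against 13.3, 13.1 and 8.30 in the XLR-1 lists. In CLR-2 list 1, 95.7% of peaks had a fold below 1, in list 3 33.3% had, and in list 2 none had. The median false discovery rate was 0.83%, 100% and 9.57% in the CLR-2 lists and 0% in each XLR-1 list. CLR-2 list 1 for its folds, CLR-2 list 2 for its false discovery rate and XLR-1 list 3 for its length therefore stand apart, and main results are given with and without them. Total reads per library are not known from the files, so tags per peak are the only measure of depth.

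Of the 1487 CLR-2 regions, 469 (31.5%) overlapped an XLR-1 region and 758 (51.0%) met no peak of any XLR-1 list. Regions of the first kind are called shared and those of the second unshared. The remaining 260 met XLR-1 peaks that formed no region and were kept apart as undecided. Of the 2124 XLR-1 regions, 501 (23.6%) overlapped a CLR-2 region, 559 (26.3%) met no CLR-2 peak and 1064 were undecided. The 2 sets of shared regions formed 502 overlapping pairs. Undecided regions rested mainly on 1 long list of the other factor. XLR-1 list 3 alone accounted for 203 of the 260 undecided CLR-2 regions, and CLR-2 list 3 alone for 953 of the 1064 undecided XLR-1 regions. Counts of shared CLR-2 regions moved with the lists kept: 148, 386 and 113 without CLR-2 list 1, 2 or 3, and 165, 386 and 237 without XLR-1 list 1, 2 or 3. XLR-1 regions with no CLR-2 peak numbered 1535 without CLR-2 list 3, and 155 and 177 without XLR-1 list 1 or 3.

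Taking the regions with most tags first separated the factors. Regions were ordered by their tag percentile within each list, taking the highest peak of the region per list and the median over the 3 lists. Tags and folds given for a region are the highest among its peaks in each list, each taken separately. A tag count and a fold need therefore not come from the same peak, nor lie at the gene named. Among the first 100 CLR-2 regions, 15 overlapped an XLR-1 region and 65 met no XLR-1 peak. Among the first 100 XLR-1 regions, 46 overlapped a CLR-2 region and 12 met no CLR-2 peak. Of the next 400, 59 CLR-2 and 136 XLR-1 regions were shared, and of the rest 395 of 987 and 319 of 1624 were. By tags, with all lists kept, the shared portion was thus smaller at the top of the CLR-2 order than in its rest. It was larger at the top of the XLR-1 order than in its rest. Without CLR-2 list 1, 2 or 3, 17, 7 and 10 of the first 100 CLR-2 regions were shared, against 14.9%, 22.8% and 14.7% of all CLR-2 regions. Without XLR-1 list 1 or 3, 6 and 9 were, against 11.1% and 15.9%. The CLR-2 contrast was thus absent without CLR-2 list 1. It was also absent with peaks in all 3 lists (7 of the first 100 against 6.21%) and in equally long lists (9 against 8.58%). For XLR-1 the count was 29 without CLR-2 list 1 and 16 without CLR-2 list 3, against 7.67% and 5.65% of all XLR-1 regions.

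**Figure D1:**
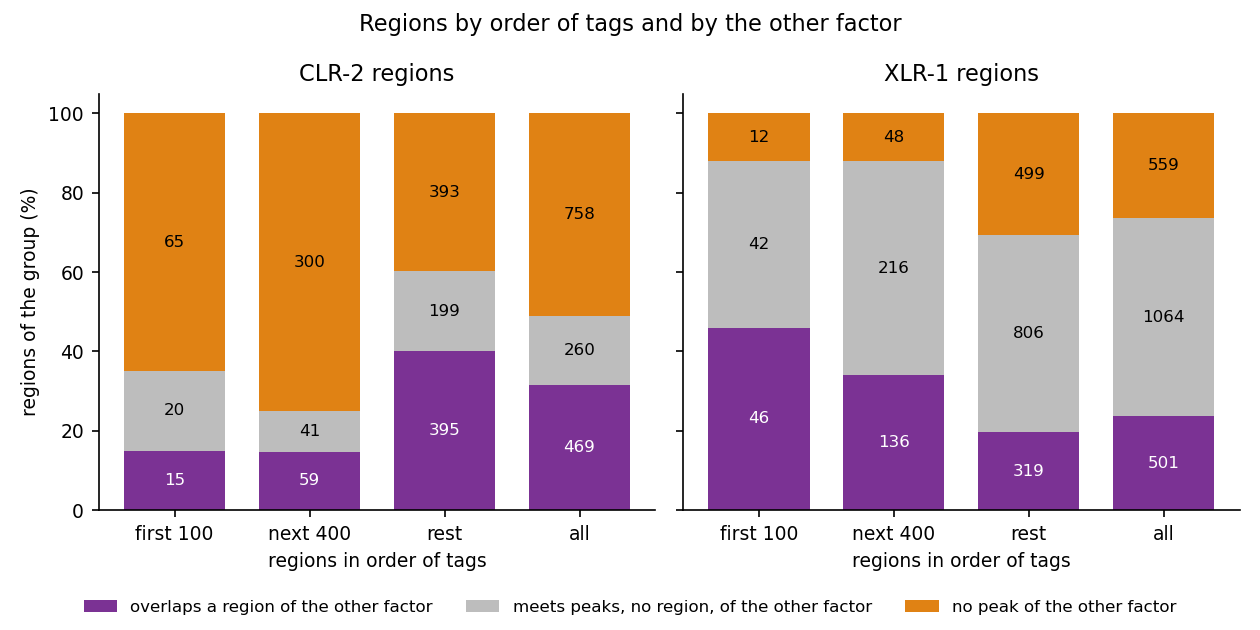
Share (%) of the CLR-2 regions (left) and XLR-1 regions (right) in each class, for the 100 regions with most tags, the next 400, the rest and all, with the number of regions in each bar. Of the first 100, 15 CLR-2 and 46 XLR-1 regions overlap a region of the other factor, and 65 and 12 meet no peak of it.

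Tags were also compared within each list between shared regions and regions of 1 factor. Median tags of shared and unshared CLR-2 regions were 84.5 and 299 in list 1, 1668 and 1920 in list 2, and 392 and 406 in list 3. Median tags of shared and unshared XLR-1 regions were 21 and 15 in list 1, 18 and 14 in list 2, and 89 and 67 in list 3. Shared regions had fewer tags than unshared ones in 3 of 3 CLR-2 lists and more in 3 of 3 XLR-1 lists. On the log2 scale the ratio of shared to unshared averaged -0.69 ± 0.98 for CLR-2 and 0.42 ± 0.06 for XLR-1 (SD, n = 3 lists each). The CLR-2 mean rested on list 1, at -1.82, with lists 2 and 3 at -0.20 and -0.05. The difference of -1.11 had a two-sided exact permutation p of 0.1, the smallest that 3 lists against 3 allow, so the design cannot reach 0.05. All lists of a factor were scored over the same regions and classes, so the ratios are not separate values and no conclusion is drawn from this p.

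The order of the regions depended on the measure, and for CLR-2 so did the count of shared regions. Ordered by fold in place of tags, 62 of the first 100 CLR-2 regions were shared and 17 met no XLR-1 peak, and ordered by tags per kb of the peak, 57 were shared. Of the first 100 by fold, 23 CLR-2 and 47 XLR-1 regions were also among the first 100 by tags. For XLR-1, 46 of the first 100 were shared by tags and by fold alike, and 45 by tags per kb. The first 100 CLR-2 regions by tags had a median width of 15258.5 bp, those by fold 3225 bp.

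Shared CLR-2 regions were narrower and held more gene sequence than unshared ones. The median width was 1690 bp in shared and 3980.5 bp in unshared CLR-2 regions. No annotated gene reached into 55 of the 469 shared regions (11.7%) and into 523 of the 758 unshared ones (69.0%). The median summit lay inside a gene in 61.2% of the shared and 7.65% of the unshared CLR-2 regions. By width, 44.0% of the 741 CLR-2 regions up to 2500 bp were shared, 28.3% of the 329 up to 5000 bp, 15.2% of the 211 up to 10000 bp and 8.74% of the 206 wider ones. Genes cover 56.5% of the 7 chromosomes. Over all regions CLR-2 covered 7.34 Mb and XLR-1 2.51 Mb, and 417 CLR-2 regions but 1 XLR-1 region were wider than 5000 bp. With any 1 of the 6 lists left out, between 9.07% and 22.1% of shared CLR-2 regions held no gene, against between 56.5% and 89.5% of unshared ones. The level for shared summits rested on CLR-2 list 3: without it 17.7% of shared and 3.4% of unshared summits lay inside a gene. Without CLR-2 list 1 these values were 37.2% and 1.49%.

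**Figure D2:**
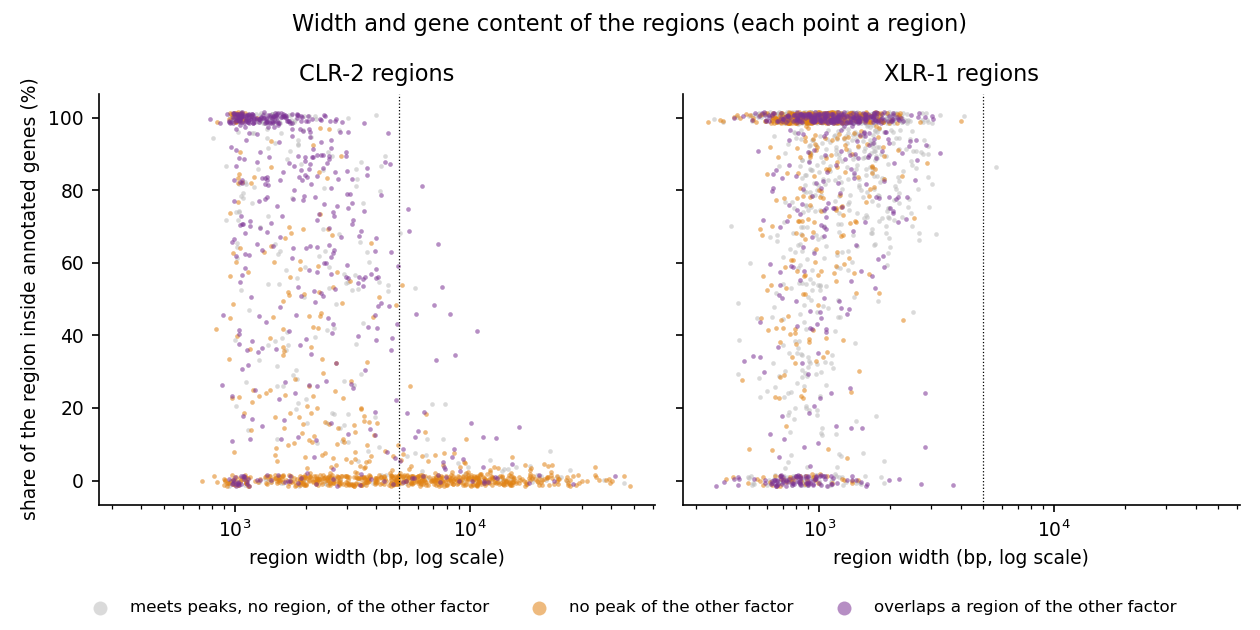
Width in bp (log scale) against the share of the region inside annotated genes (%), each point a region, CLR-2 left and XLR-1 right, coloured by class. A dotted line marks 5000 bp; CLR-2 regions past it mostly hold little or no gene sequence, and 1 XLR-1 region lies past it.

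Long gene-free stretches of the N. crassa genome are known to be largely relics of repeat-induced point mutation that are packed as heterochromatin. Base composition and chromatin marks were not analysed here, and their part in these results was not tested. The 10 unshared CLR-2 regions with most tags were all of this wide, gene-poor kind, between 14529 and 39313 bp long, and each had its summit at least 6905 bp from the nearest gene. A region on chromosome VII, 135683 to 152643, was first among them by the median tag percentile, with 3356, 3144 and 5432 tags and folds of 1.15, 2.80 and 1.84 in lists 1, 2 and 3. No annotated gene lay in it, and the nearest, NCU09270, was 8902 bp from the median summit. Next came a region on chromosome II, 3678549 to 3712803, whose median summit was 12173 bp from NCU08696, with 3277, 8810 and 3714 tags and folds of 1.32, 4.41 and 2.18. All 10 also overlapped a region of the related factor CLR-1 on Avicel, 2 overlapped a CLR-2 peak at 24 h on Avicel, and none overlapped an XLR-1 region on xylan. Over all CLR-2 regions 46.9% overlapped a CLR-1 region, 25.2% a CLR-2 peak at 24 h and 17.2% an XLR-1 region on xylan. Overlap with CLR-1 went with many tags in every class: 97 of the first 100 CLR-2 regions overlapped a CLR-1 region, among them all 15 shared ones. Those 100 regions had a median width of 15258.5 bp, against 2511 bp over all CLR-2 regions. Overlap with CLR-1 also rose with width, from 34.8% of CLR-2 regions up to 2500 bp to 87.9% of those over 10000 bp. Tags and width were not separated here.

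The wide regions recurred in some lists of the series and not in others. Of the 293 CLR-2 regions over 5000 bp with no gene, 86.7%, 53.9% and 70.0% met a peak of CLR-1 lists 1, 2 and 3 on Avicel. On sucrose, where cellulase genes are known to be repressed, 84.6% met a peak of CLR-1 list 1 and 4.78% a peak of list 2. At 24 h on Avicel, 10.2% met a peak of the single CLR-2 list, which came from a heterokaryon strain. XLR-1 lists met between 2.39% and 11.9% of them on Avicel or xylan. CLR-2 regions of up to 5000 bp were met by each of these lists within a narrower span, between 15.2% and 51.0%. XLR-1 regions were sparse in the wide stretches: 16 overlapped the 3.60 Mb of wide gene-free CLR-2 regions, or 4.45 per Mb. In the 2.26 Mb of CLR-2 regions up to 5000 bp there were 447, or 198 per Mb, and over the chromosomes 52.5 per Mb. Any overlap of at least 1 bp was counted, which raises the density of short stretches. The wide stretches were chosen for holding no gene, and only 199 of the 2124 XLR-1 regions (9.37%) held none. Their low density is thus partly fixed by the choice.

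**Figure D3:**
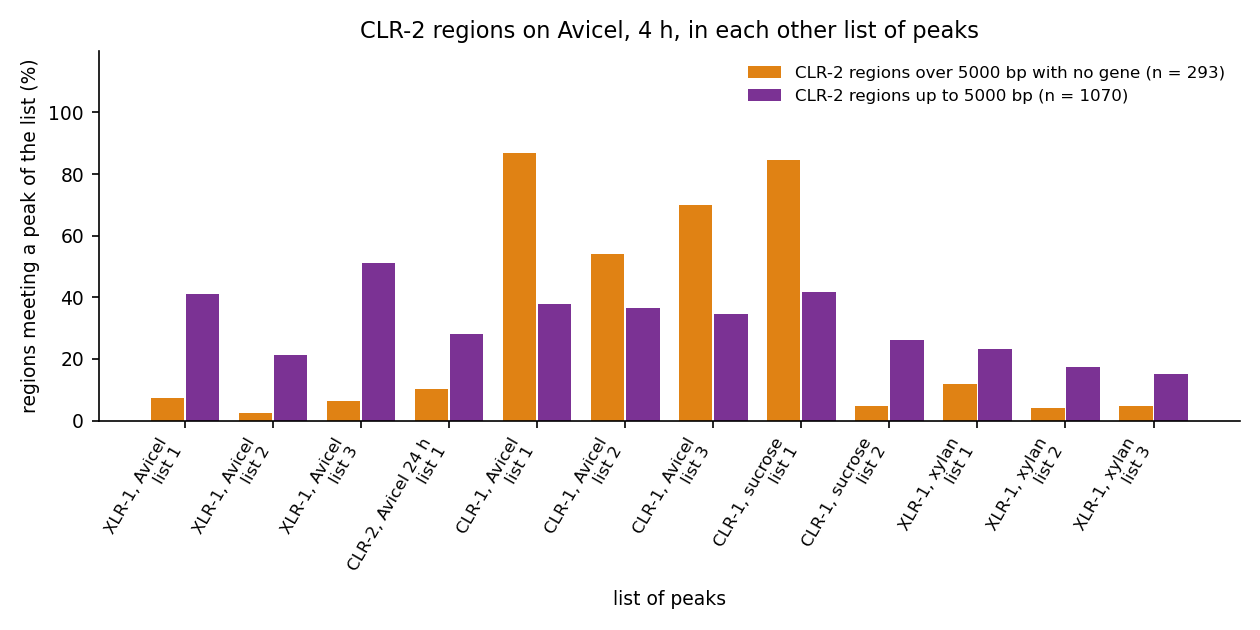
Share (%) of CLR-2 regions on Avicel at 4 h that meet a peak of each other list, for the 293 gene-free regions over 5000 bp and the 1070 regions up to 5000 bp. CLR-1 lists on Avicel and CLR-1 sucrose list 1 meet between 53.9% and 86.7% of the wide regions, and the other lists at most 11.9%.

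Among the shared regions with many tags in both factors were those beside the xylanase genes gh11-2 and gh10-2 and at the cellulose gene cdh-1. First, by the lower of the 2 factors' tag percentiles, was the region beside the xylanase gene gh11-2 (NCU07225, chromosome V, 6198659 to 6199980). There the CLR-2 region (6197909 to 6204930) had 102, 7581 and 2733 tags and folds of 0.47, 10.95 and 5.06 in lists 1, 2 and 3. The XLR-1 region (6200038 to 6201414) had 115, 130 and 174 tags and folds of 96.1, 133 and 37.96. The closest CLR-2 and XLR-1 summits were 8 bp apart, in the stretch between gh11-2 and NCU07224. Both regions also overlapped a region of CLR-1 on Avicel, a CLR-2 peak at 24 h and an XLR-1 region on xylan.

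Next was the stretch beside the xylanase gene gh10-2 (NCU08189, chromosome III, 4598536 to 4599913), where the factors differed in extent. A CLR-2 region of 19794 bp, with 472, 6271 and 1164 tags and folds of 0.84, 3.21 and 1.17, ended about where an XLR-1 region of 1039 bp lay, with 83, 88 and 119 tags and folds of 63.2, 85.9 and 22.6. Their closest summits were 1 bp apart. CLR-2 thus gave many tags and low folds over a long stretch with little gene sequence, and XLR-1 a narrow peak 1003 bp from gh10-2.

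At cdh-1 (NCU00206), which encodes cellobiose dehydrogenase, an oxidative partner of lytic polysaccharide monooxygenases, the median summit of each factor lay inside the gene (3004156 to 3008108). The CLR-2 region (3003805 to 3010079) ran past both ends of the gene, and the XLR-1 region (3004253 to 3005720) lay within it. CLR-2 had 72, 3842 and 2098 tags with folds of 0.32, 9.01 and 11.1, and XLR-1 had 36 and 149 tags with folds of 18.6 and 11.8 in lists 1 and 3 and no peak of this region in list 2. The region beside NCU05846 (clr-3), a gene known for repressing CLR-1 activity, had 3536 and 1839 CLR-2 tags in lists 2 and 3, against 50 and 258 XLR-1 tags in lists 1 and 3. Its closest summits were 839 bp apart. The other shared regions in the first 10 lay at or near NCU08048, NCU04502, NCU04276 and thr-4, an end of chromosome II, NCU08797, and NCU03966 and the photoreceptor gene vvd.

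Distances between summits were measured in pairs chosen because their regions overlap, so short distances are partly fixed by the choice and by the width of the peaks. The closest summits of the 502 pairs were a median of 28 bp apart and within 500 bp in 436 pairs (86.9%), a minimum over all lists that is small by construction. Measured from the median XLR-1 summit to the closest CLR-2 summit of 1 list at a time, the median was 177 bp for CLR-2 list 1, 977 bp for list 2 and 82.0 bp for list 3. Summits within 500 bp made up 69.9%, 32.4% and 79.9% of the pairs in those lists. List 2, with a median peak width of 2242 bp, had the longest distances.

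XLR-1 regions with no CLR-2 peak included those beside xyk-1 and xr, genes of pentose use. The first was beside xyk-1 (NCU11353, chromosome III, 1247224 to 1249624), the gene of xylulokinase, which phosphorylates xylulose. XLR-1 had 59, 62 and 339 tags there, with folds of 45.7, 60.9 and 67.5. Its summit was 183 bp outside the gene. The second was beside xr (NCU08384), the gene of xylose reductase, which opens the pathway, with 69, 80 and 137 tags and folds of 52.6, 71.6 and 24.3 and a summit 112 bp outside the gene. Also among the first 10 were the β-xylosidase gene NCU09652 and the loci NCU06138, NCU08847, NCU08660, NCU00292, NCU06143, NCU17036 and NCU04537. All 10 overlapped an XLR-1 region on xylan, and 9 of the 10 had their median summit outside annotated genes. Among the 12 unshared regions in the first 100, 11 overlapped an XLR-1 xylan region.

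The bulk of XLR-1 regions did not share these features. Over all 559 unshared XLR-1 regions, 86 overlapped an XLR-1 xylan region, and 466 (83.4%) had their summit inside a gene. Splitting by binding on xylan separated regions of different position in each class. Bound on xylan means here overlap with an XLR-1 xylan region, which needed peaks of at least 2 of the 3 xylan lists. The split also went with fold. Median folds of shared XLR-1 regions in lists 1, 2 and 3 were 19.6, 23.5 and 9.46 if bound on xylan, against 13.4, 11.8 and 9.30 if not. Of the 175 shared XLR-1 regions also bound on xylan, 45.7% had the summit inside a gene and 77.1% overlapped a CLR-1 region on Avicel. Of the 326 shared regions not bound on xylan, 84.7% had the summit inside a gene and 28.8% overlapped a CLR-1 region. For unshared XLR-1 regions the summit was inside a gene in 46.5% of the 86 bound on xylan and in 90.1% of the 473 not bound. With any 1 of the 6 lists left out, the xylan-bound shared regions had between 29.5% and 55.3% of summits inside genes, against between 67.8% and 86.9% of the others.

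**Figure D4:**
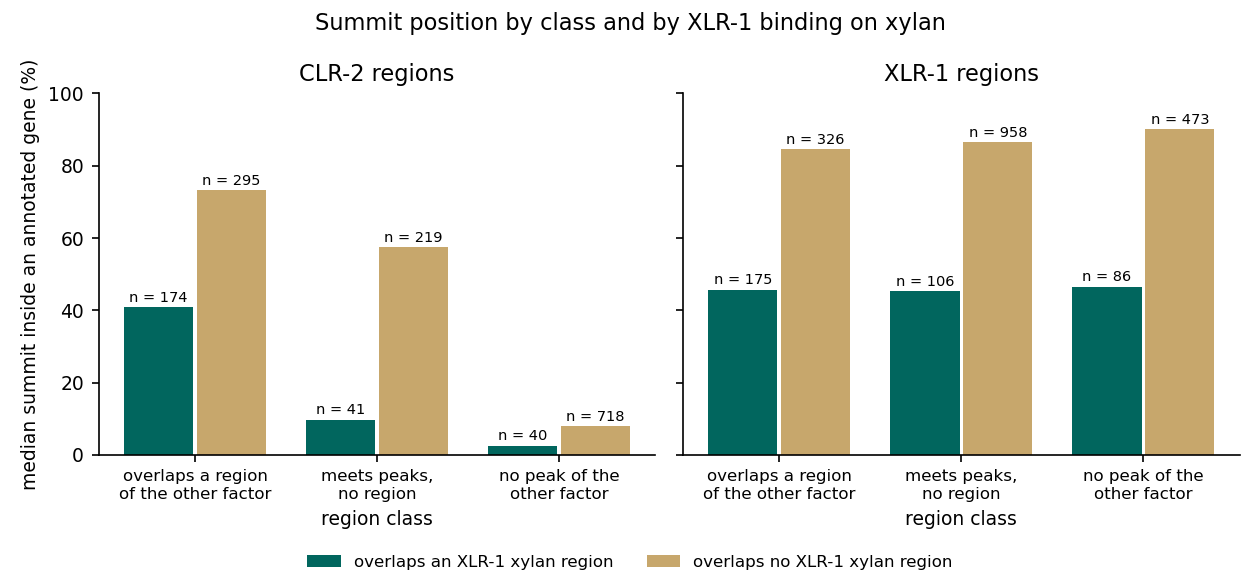
Share (%) of regions whose median summit lies inside an annotated gene, by class, for regions that overlap an XLR-1 xylan region and regions that overlap none, CLR-2 left and XLR-1 right. In each XLR-1 class the xylan-bound regions sit near 45.7% and the others at 84.7% or more.

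Shared CLR-2 regions showed the same split. Of the 174 in an XLR-1 xylan region, 40.8% had the summit inside a gene and 80.5% overlapped a CLR-1 Avicel region. Of the 295 in none, 73.2% had the summit inside a gene and 35.3% overlapped a CLR-1 region. XLR-1 xylan regions held 37.1% of shared and 5.28% of unshared CLR-2 regions, and CLR-2 peaks at 24 h met 36.9% and 15.3%.

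Over the lists, CLR-2 summits lay inside genes less often than XLR-1 summits. Values were 23.4%, 8.02% and 42.4% in CLR-2 lists 1, 2 and 3 (24.6 ± 17.2%, SD, n = 3), against 77.8%, 62.7% and 83.4% in the XLR-1 lists (74.6 ± 10.8%, SD, n = 3). The groups did not overlap, and the difference of -50.0 percentage points had a two-sided exact permutation p of 0.1, the smallest possible. Median peak widths of 1025.5, 2242 and 1258 bp in the CLR-2 lists stood against 621, 606 and 878.5 bp in the XLR-1 lists. This difference of 806.7 bp had the same exact permutation p of 0.1, and these groups did not overlap either.

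A gene was counted beside a region when the deposited tables named it beside peaks of that region in at least 2 lists. Of 9729 protein-coding genes, 1129 (11.6%) were beside a CLR-2 region, 2515 (25.9%) beside an XLR-1 region and 597 (6.14%) beside regions of both. Of 26 cellulose degradation genes, 17 were beside a CLR-2 region and 7 beside an XLR-1 region, 6 of them beside both. Of 14 genes of xylan degradation and pentose use, 6 were beside a CLR-2 region and 11 beside an XLR-1 region, with 5 beside both. CLR-2 was thus listed at more of the cellulose genes and XLR-1 at more of the xylan genes. The 7 of 26 cellulose genes beside XLR-1 regions make 26.9%, near the 25.9% of all genes. Without CLR-2 list 1, 2 or 3, 16, 13 and 12 cellulose genes were beside a CLR-2 region. Without XLR-1 list 1, 2 or 3, 9, 10 and 10 xylan genes and 4, 6 and 5 cellulose genes were beside an XLR-1 region. The tables did not name every gene inside a region. By overlap of the gene body with a region, 17 cellulose genes lay at CLR-2 and 5 at XLR-1, and 6 xylan genes at CLR-2 and 8 at XLR-1, against 11.6% and 21.0% of all genes.

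Several cellulose genes with high CLR-2 folds had no XLR-1 region beside them. cbh-1 (NCU07340, chromosome IV, 4311049 to 4314145), which encodes a cellobiohydrolase that releases cellobiose from chain ends, was beside the CLR-2 region that came first by the median tag percentile and had the most tags in list 2. That region had 140, 12838 and 4023 tags and folds of 0.96, 8.12 and 7.83 in lists 1, 2 and 3. This region counted as shared because its 10770 bp also held an XLR-1 region near NCU07338 (4318568 to 4319402), with 24 and 21 tags in lists 1 and 2. At cbh-1 itself CLR-2 list 1 reached 120 tags and a fold of 0.28, and XLR-1 had peaks in list 3 alone. At another cellobiohydrolase gene, gh6-3 (NCU07190), CLR-2 had 72, 4778 and 1516 tags at folds of 0.29, 6.89 and 3.40, and the XLR-1 region overlapping it by 482 bp lay beside NCU07191, with closest summits 2784 bp apart.

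Endoglucanases cut inside the cellulose chain. Beside the endoglucanase gene gh7-1 (NCU05057), CLR-2 had 241, 4099 and 1782 tags and folds of 1.77, 12.6 and 8.94. The endoglucanase gene gh5-1 (NCU00762) had 65, 4451 and 1855 tags and folds of 0.29, 7.96 and 4.58. In each case lists 2 and 3 gave high folds and list 1 a low one.

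Lytic polysaccharide monooxygenases break crystalline cellulose by oxidation. The monooxygenase gene gh61-5 (NCU08760) had CLR-2 tags of 94, 5150 and 1494 with folds of 0.76, 12.9 and 8.80, and gh61-4 (NCU01050) had 92, 5085 and 2475 with folds of 0.43, 12.3 and 6.83. NCU07898, gh61-1 (NCU02240) and gh61-7 (NCU00836) were also beside a CLR-2 region alone. So was NCU07974 (chromosome IV, 3772911 to 3775201), but no CLR-2 region overlapped its body. A CLR-2 region beside it (3763552 to 3770702), 7151 bp wide, held no gene and had folds of 1.06, 2.15 and 1.41. For gh61-2 (NCU07760), gh61-3 (NCU02916), gh61-9 (NCU05969) and NCU02344, regions of both factors overlapped. The monooxygenase family thus held genes of both kinds. gh61-2 was the one with the most XLR-1 tags, 58, 22 and 151, and its CLR-2 folds were 0.20, 1.96 and 1.70.

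β-Glucosidases split cellobiose to glucose. At gh1-1 (NCU00130) CLR-2 had 67, 1525 and 360 tags with folds of 0.40, 1.93 and 1.59, and XLR-1 had 54, 43 and 78 tags with folds of 28.9, 27.8 and 9.46. By tags the CLR-2 region was 692 of 1487 and the XLR-1 region 71 of 2124. gh3-3 (NCU08755) was beside a CLR-2 region alone and gh3-6 (NCU07487) beside an XLR-1 region alone. That XLR-1 region (442155 to 442695) lay away from gh3-6 (448859 to 451692) and was not tied to it by the nearest gene. It had 16 and 12 tags in lists 1 and 2 and was 1435 of 2124 by tags. gh3-4 (NCU04952) was beside neither factor. Also beside neither were gh6-2 (NCU09680), gh45-1 (NCU05121), cdh-2 (NCU05923) and the monooxygenase genes gh61-6, gh61-8, gh61-10 and gh61-11. This is by the genes the tables name, and 2 of these genes lay within CLR-2 regions all the same. The cellobiohydrolase gene gh6-2 lay in a CLR-2 region (chromosome V, 857273 to 861640) that was 11 of 1487 by tags, with 127, 6901 and 2816 tags at folds of 0.47, 5.67 and 3.94. gh61-6 lay in one of 21992 bp that was 97 of 1487, with 717, 5552 and 995 tags at folds of 0.68, 3.19 and 2.15.

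**Figure D5:**
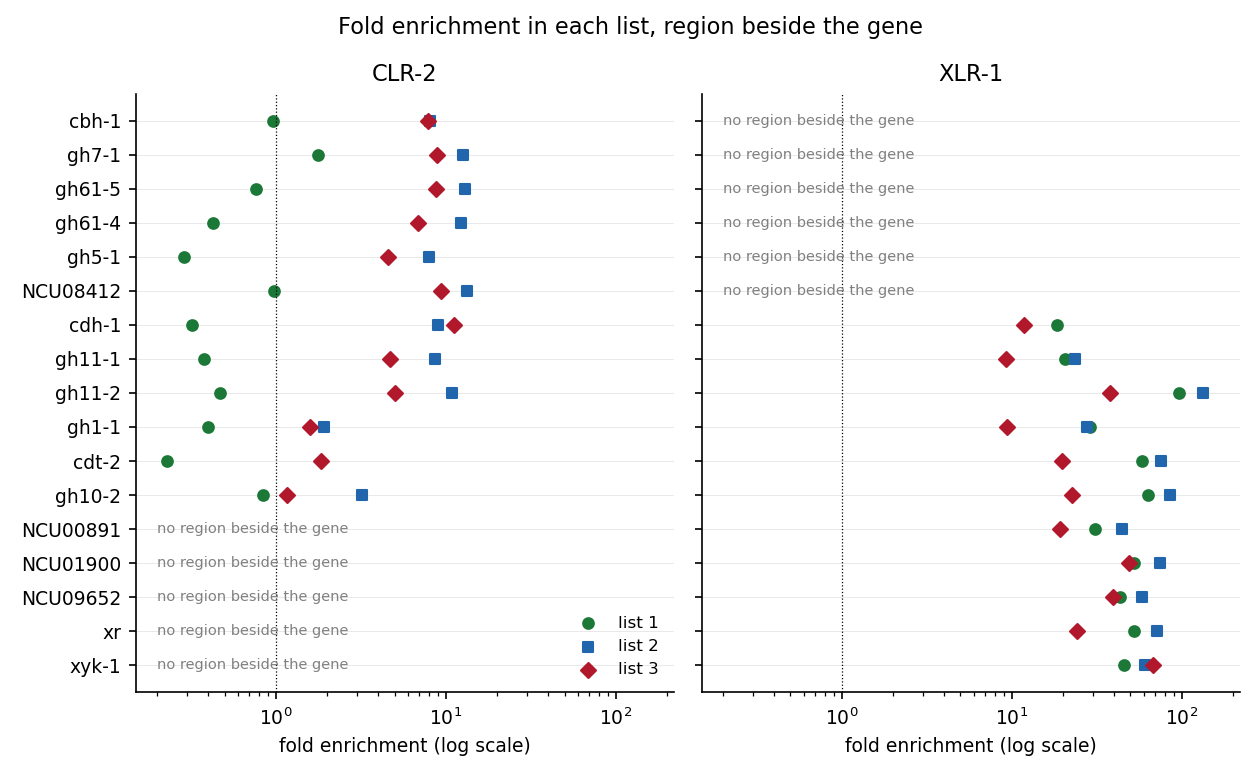
Fold enrichment (log scale) in each list of the region beside 17 genes chosen after their values were seen, CLR-2 left and XLR-1 right, with a dotted line at a fold of 1. The 5 cellulose genes at the top have CLR-2 folds of 4.58 to 12.9 in lists 2 and 3 and no XLR-1 region. The 5 genes of xylan and pentose use at the bottom have XLR-1 folds of 19.4 to 74.7 and no CLR-2 region. Peaks that formed no region are not drawn, such as those of XLR-1 list 3 at cbh-1 and of CLR-2 list 3 at NCU00891 and NCU01900.

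XLR-1 list 3 differed from the other XLR-1 lists at these genes. Its peaks met the body of 22 of the 26 cellulose genes, and list 1 met 5 and list 2 met 3. Peaks of list 3 met 56.4% of all protein-coding gene bodies, those of list 1 19.9% and those of list 2 7.39%. At cbh-1 the highest such peak had 77 tags and a fold of 10.1, and at gh7-1 35 tags and a fold of 6.54. Of the 14 genes of xylan and pentose use, XLR-1 lists 1, 2 and 3 met 8, 8 and 11. By the same count CLR-2 lists 1, 2 and 3 met 11, 17 and 20 of the 26 bodies, against 10.3%, 8.78% and 25.7% of all genes.

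Regions of both factors overlapped beside 4 of the 6 xylanase genes as the tables name them: gh10-2, gh10-3, gh11-1 and gh11-2 were named beside regions of both factors, and gh10-4 beside neither. Only gh11-1, 1 of the 6, was tied to both factors by the nearest gene, and again by overlap of the gene body. At gh11-1 (NCU02855) there were CLR-2 tags of 85, 2606 and 1027 at folds of 0.38, 8.62 and 4.72, and XLR-1 tags of 32, 32 and 117 at folds of 20.7, 23.5 and 9.30. Their closest summits were 1 bp apart. gh10-1 (NCU05924) was beside a CLR-2 region alone, with 73, 1998 and 877 tags and folds of 0.33, 5.10 and 2.44. The pentose genes xr, xyk-1 and NCU00891, the gene of xylitol dehydrogenase, had XLR-1 regions alone. At NCU00891 XLR-1 had 106, 69 and 279 tags at folds of 31.0, 44.4 and 19.4. The β-xylosidase genes NCU09652 and NCU01900 were likewise beside XLR-1 regions alone. The XLR-1 regions of NCU00891 and NCU01900 were undecided, however. CLR-2 list 3, and no other CLR-2 list, had peaks on the bodies of NCU00891 (up to 477 tags, fold 1.63) and NCU01900 (322 tags, fold 1.66). The arabinofuranosidase gene NCU02343 was beside an XLR-1 region alone by the tables, but a CLR-2 region also overlapped its body. NCU00643, also on the list of xylan and pentose genes, was beside neither factor. On its body only XLR-1 list 3 had peaks, with up to 84 tags and a fold of up to 7.04.

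NCU08412, which encodes a mannanase, was first of all CLR-2 regions in the order of folds, with 147, 4212 and 2269 tags and folds of 0.97, 13.3 and 9.38. No XLR-1 peak of any list met that region. Of the 4 mannan and pectin genes, 2 (50%) were beside a CLR-2 region and 1 (25%) beside an XLR-1 region, against 11.6% and 25.9% of all genes. The β-mannosidase gene gh2-1 (NCU00890) was beside both, with the XLR-1 region overlapping the CLR-2 region by 119 bp and the closest summits 1282 bp apart.

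Of the 6 sugar transporter genes, 1 (16.7%) was beside a CLR-2 region and 2 (33.3%) beside an XLR-1 region, against 11.6% and 25.9% of all genes. cdt-2 (NCU08114), which encodes a cellodextrin transporter, was beside both, with CLR-2 tags of 52 and 1283 at folds of 0.23 and 1.84 in lists 1 and 3, and XLR-1 tags of 108, 92 and 137 at folds of 58.9, 75.8 and 19.9. The tables named the other cellodextrin transporter gene, cdt-1 (NCU00801), beside the same region in fewer than 2 lists of either factor. The gene nevertheless lay within a CLR-2 region (chromosome I, 7119366 to 7127595) that was 25 of 1487 by tags, with 96, 5808 and 1533 tags at folds of 0.64, 3.57 and 2.56. That region overlapped an XLR-1 region of 25 and 12 tags in lists 1 and 2, whose nearest gene was NCU00802, and the closest summits were 1 bp apart.

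Of the 8 regulators of carbon use, 5 were beside a CLR-2 region and 5 beside an XLR-1 region (62.5% each), against 11.6% and 25.9% of all genes. Beside both were cre-1 (NCU08807), vib-1 (NCU03725) and NCU05846. In the region beside cre-1, the gene of the carbon catabolite repressor, CLR-2 had 148 and 567 tags in lists 1 and 3. XLR-1 had 35, 30 and 35 tags there, with closest summits 6 bp apart. A CLR-2 list 2 peak of 3584 tags, at a fold of 2.81, also met the body of cre-1 but was not part of that region. Beside clr-2 (NCU08042) CLR-2 had 883 and 276 tags in lists 2 and 3 with folds of 2.56 and 0.84, and the region was 1328 of 1487 by tags. Another CLR-2 region (chromosome IV, 4003950 to 4010871), which the tables do not tie to clr-2 in 2 lists, overlapped the gene itself and was 17 of 1487, with 38, 6634 and 2046 tags at folds of 0.25, 2.94 and 2.79. xlr-1 (NCU06971) was beside a CLR-2 region alone, and clr-1 (NCU07705) and col-26 (NCU07788) beside an XLR-1 region alone. By the gene nearest to the median summit, clr-1 was beside separate regions of both, and vib-1, clr-2 and xlr-1 beside neither. The vib-1 regions lay beyond the gene, and no region overlapped its body. Counts for CLR-2 were 4, 3 and 2 of the 8 without CLR-2 list 1, 2 or 3, and for XLR-1 2, 3 and 4 without XLR-1 list 1, 2 or 3.

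The counts for the transporter and mannan genes rested on single lists of peaks. Without CLR-2 list 1 or 3 no sugar transporter gene was beside a CLR-2 region, and without XLR-1 list 1 or 3 no mannan or pectin gene was beside an XLR-1 region.

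The glucoamylase gene gla-1 (NCU01517), which serves starch breakdown, was beside both factors, with 97, 1230 and 449 CLR-2 tags and 17 and 106 XLR-1 tags in lists 1 and 3. None of the 6 housekeeping and construct genes, act, gpd-1, hH3, hH4-1, ccg-1 and his-3, was beside a region of either factor by the tables. By overlap of the gene body, gpd-1 and hH4-1 met a CLR-2 region and his-3 met an XLR-1 region.

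Ordering by fold brought the list genes forward for CLR-2 and gave the same count of xylan and pentose genes for XLR-1. Genes beside the first 100 CLR-2 regions included 5 cellulose genes of 108 by tags and 12 of 130 by fold. Genes beside the first 100 XLR-1 regions included 8 of the xylan and pentose list by tags, of 127, and 8 by fold, of 119. Chosen after their values were seen, the unshared CLR-2 regions first by fold after NCU08412 were beside NCU09523 and NCU09524 (chromosome III, 13947 to 16457), with folds of 0.48, 9.58 and 5.58, and near NCU00500, with folds of 1.33, 1.98 and 4.73. The XLR-1 region first by fold lay on chromosome II, 2882198 to 2885012, 1275 bp from NCU16562, with 201, 174 and 632 tags at folds of 99.1, 114 and 51.3, and overlapped a CLR-2 region.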

How the data were processed

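Per the submitters' processing notes the aligner was Bowtie2, and the file headers name MACS as the peak caller, run on each list by itself. No source used here states their settings, versions or control. The authors deposited, for each peak, its tags as a count, a score (a multiple of -log10 p), a fold enrichment as a ratio and a false discovery rate as a percent; these are the peak's own values and served to describe, order and filter peaks. Total reads are not known, so no intervals were computed. Lists carry their own numbers and cannot be tied to the library numbers in the labels. Of 9477 genes the 6 lists name inside a peak, 9466 overlap it in the RefSeq annotation (NC12), which also gave the 9729 protein-coding genes. Regions, classes and order are as in the report; alternatives are below. The regions, gene lists and rule for named genes (all list members, and the first 10 regions of each class by tags) were chosen with earlier results of these data known. Tests were exact permutations over lists. The steps that form and class regions were tested on simulated lists of short, well-separated peaks. Wide regions and lists of very unequal length were not simulated. CLR-1 at 24 h and V5-tagged CLR-1 were not used here. Tools were pandas 2.3.3, numpy 2.4.6, scipy 1.17.1 and, for plots, matplotlib 3.10.9 under Python 3.11.15.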

Additional observations from a re-analysis of the deposited data

Results flagged for a closer look

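The relation of tags to sharing ran in opposite directions in the 2 factors: every CLR-2 list and every XLR-1 list stood on its own side of 1. Median tags of shared over unshared regions were 0.283, 0.869 and 0.965 in CLR-2 lists 1, 2 and 3, against 1.40, 1.29 and 1.33 in XLR-1 lists 1, 2 and 3. The difference between the factors had a two-sided exact permutation p of 0.1 over the 6 lists, the smallest possible. Lists of a factor share their regions and classes, so their ratios are not separate values and no conclusion is drawn from this p. CLR-2 lists 2 and 3 lay closer to 1 than list 1. Region width moves with tags, with median widths of 1690 bp in shared and 3980.5 bp in unshared CLR-2 regions, and its part was not tested.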

How the results depend on the processing

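The direction of the summit and width differences was the same under every alternative run. Shared CLR-2 regions (469) numbered 308 with summits within 500 bp, 39 with peaks in all 3 lists, 199 at a score of at least 100, 49 in equally long lists of 897 peaks and 166 at a fold of at least 1, and between 113 and 386 with a list left out. CLR-2 regions with no XLR-1 peak (758) numbered 1419 by summits, 2263 as stretches covered by at least 2 lists, 447 in all 3 lists, 495 in equally long lists, 435 up to 5000 bp and 432 at a fold of at least 1, and between 558 and 1117 with a list left out. XLR-1 regions with no CLR-2 peak (559) numbered 123 in all 3 lists and 160 at a score of at least 100, and between 155 and 1535 with a list left out. Shared regions among the first 100 of CLR-2 (15) numbered 4 by summits, 5 as covered stretches, 7 in all 3 lists, 6 at a score of at least 100, 9 in equally long lists, 23, 62 and 57 when ordered by score, fold or tags per kb, and between 6 and 17 with a list left out. For XLR-1 (46) they numbered 19 in all 3 lists, 21 in equally long lists and 29 at a fold of at least 1, and between 16 and 57 with a list left out. Stricter settings keep fewer regions by construction; otherwise the cause was not tested. The alternatives on fold, width, nearest gene, gene body and tags per kb, and the gene, width and position values with a list left out, were chosen after seeing the data. Nearest start codons were not run, since the annotation used gives no strand. No paired analysis was possible because list numbers tie no CLR-2 list to an XLR-1 list. Low tags per XLR-1 peak, between 10 and 632, limit its weaker regions.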
